A study of Rattus norvegicus with 241 samples.

Results

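Luminal epithelial cells of the mammary gland were compared between estradiol-exposed rats that had received a TGFβ receptor inhibitor early in life and stayed free of tumors, and estradiol-exposed vehicle rats that had developed tumors. The members were the bulk RNA-seq libraries of the ACI estradiol-pellet experiment whose labels gave luminal cells and E2 and either of these 2 groups. This gave 11 libraries from 8 rats, of 20 luminal libraries from 17 rats in that experiment and of 202 bulk samples and 241 samples in the series.

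Luminal cells line the ducts and alveoli of the gland and include cells that carry estrogen and progesterone receptors and alveolar cells that can make milk. TGFβ binds a receptor pair on the cell surface, and the active receptor phosphorylates SMAD proteins that regulate transcription with SMAD4. In the mammary gland the pathway restrains epithelial growth and shapes the surrounding matrix. ACI is an inbred rat strain that develops mammary tumors under continuous estradiol, given here from an implant, and estradiol also drives the gland toward alveolar growth and milk gene expression.

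All rats of this experiment were virgin ACI females. The treated group was given the TGFβ receptor inhibitor spelled LY22157299 in the labels, written TGFBRi here, by gavage at 75 mg/kg, 2 times a day for 21 days from day 38 of age, and the control group was given vehicle. Both groups then received an implant with 37 mg of estradiol (E2) at 60 days of age, and normal mammary gland was collected later, at a time the labels give as variable. The groups were tumor-free TGFBRi with E2 (4 rats, 7 libraries, since rat 1 was sequenced as 4 parts that were averaged) and tumor-bearing vehicle with E2 (4 rats). No vehicle rat with E2 was tumor-free in these labels, so in this comparison drug and tumor status cannot be told apart. Other luminal groups of the experiment entered the same model and are given for reference, namely tumor-bearing TGFBRi with E2 (2 rats), vehicle without E2 (4 rats) and TGFBRi without E2 (3 rats). The cells were sorted as CD24-positive and CD29-low cells without CD45 or CD31, a gate that by design excludes leukocytes and endothelium.

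The 11 libraries held 19007447 to 29414027 reads on genes, with 11266 to 12143 genes detected. Each single TGFBRi library, at 19998542 to 28905829 reads, lay within the vehicle range. TGFBRi rat 1 had 4 libraries of 20094458 to 28905829 reads, so as a rat it was read more deeply than any vehicle rat. Values below are normalized values, that is reads on a gene divided by the authors' size factor for the library, given for rats 1 to 4 in that order. Differences are on the scale of log2(normalized value + 1), TGFBRi minus vehicle, with a standard error (SE) and a limma p adjusted by Benjamini-Hochberg over all genes tested. The luminal label held in every rat: 6 luminal markers (KRT8, KRT18, KRT19, EPCAM, CLDN4 and ELF5) summed to 18079 to 23916 CPM (reads scaled so that all libraries have the same total) in vehicle rats and 21227 to 28320 in TGFBRi rats. The 6 leukocyte markers (among them PTPRC, which encodes CD45) summed to 31.01 to 97.1 CPM in vehicle and 14.8 to 32.4 in TGFBRi rats, against 5580 to 7931 in the CD45-sorted cells of the same 8 rats. Basal markers summed to 258 to 379 CPM in vehicle and 225 to 1001 in TGFBRi rats. Fibroblast markers summed to 69.8 to 1110 CPM in vehicle and 41.2 to 426 in TGFBRi rats, and endothelial markers to 22.5 to 152 and 7.28 to 184. In bulk libraries, fewer cells of a type and less RNA per cell cannot be told apart.

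Few single genes separated the groups past the threshold. Of 13590 genes tested, limma called 2 higher in tumor-free TGFBRi rats (0.0147% of the genes) and 0 lower (0.0%) at an adjusted p of 0.05, while 388 genes higher (2.86%) and 440 lower (3.24%) had an unadjusted p below 0.05. edgeR's quasi-likelihood test on the recovered reads called 0 genes (0.0%), with 921 at an unadjusted p below 0.05. DESeq2 on the same reads called 57, of which 28 were higher (0.206%) and 29 lower (0.213%), and it called 0 of the 2 limma genes. A limma fit restricted to the 2 groups compared called 20 of 12891 genes, 11 higher (0.0853%) and 9 lower (0.0698%). The values of the 4 and 4 rats did not overlap for 415 genes higher (3.05%) and 353 lower (2.6%). Of all genes tested, 6798 had a difference above 0 and 6687 below. The count of limma calls was 0 without TGFBRi rat 1 or vehicle rat 2, 1 without TGFBRi rat 2, TGFBRi rat 4, vehicle rat 3 or vehicle rat 4, 3 without vehicle rat 1, and 4 without TGFBRi rat 3. In the 5-group fit the median 95% interval reached 1.06 log2 units to either side of a difference over all genes, and 0.59 for genes with a mean value of at least 1000. Over the 9689 genes with a mean of at least 50, the SD of the log2 values had a median of 0.38 over the 4 vehicle rats, 0.39 over the 3 TGFBRi rats sampled once, and 0.27 over the 4 parts of rat 1.

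The 2 genes that rose were both at 0 in every vehicle rat. CCR1L1, a chemokine-receptor gene closely related to CCR1, was at 0 in vehicle rats 1 to 4 and at 96.4, 13.7, 13.9 and 95.5 in the TGFBRi rats. Its 4 parts in rat 1 ranged from 73.6 to 131, and it was at 0 in all 9 other luminal rats, including the 2 tumor-bearing TGFBRi rats. Against a floor of 3 reads over the vehicle group, the mean of CCR1L1 in the TGFBRi rats was at least 66.7-fold higher. Such folds, here and below, set a group mean against a counting limit. They leave out the spread between rats and are no bound for a single rat. The limma adjusted p was 0.0194, but it ran up to 0.0905 when 1 rat was left out, with the call lost without TGFBRi rats 1 or 4 or vehicle rats 2, 3 or 4, and the call was also lost with only the 2 groups in the fit (limma adjusted p = 0.0979), with a pseudocount of 5 (limma, 0.0535), by edgeR (0.629) and by DESeq2 (0.189). BRINP1, which is expressed mainly in neurons and was taken up after its values were seen, was at 0 in the 4 vehicle rats. It stood at 20.3, 34.4, 39.9 and 48.7 in the TGFBRi rats (limma adjusted p = 0.0290, mean at least 43.5-fold higher). Its 4 parts in rat 1 were at 0, 12.1, 63.5 and 5.64. Its call was lost without any 1 of the 8 rats (limma adjusted p of 0.0543 to 0.118), with only the 2 groups in the fit (limma, 0.0664), with part 1 of rat 1 only (limma, 0.330), by edgeR (0.639) and by DESeq2 (0.217). Both are low genes, and whether CCR1L1 shares reads with its relatives was not tested. Of all 13590 genes tested, 14 were at 0 in every vehicle rat and above 0 in every TGFBRi rat, and 1 the reverse. TGFBRi rat 1 was read from 4 libraries, and the part of its depth in these counts was not tested.

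To describe the leading differences beyond these calls, the 12 genes in each direction with the smallest limma p, no overlap between the rats and a mean of at least 50 recovered reads were taken. For this mean the reads of the 4 libraries of TGFBRi rat 1 were summed. CCR1L1, MYCL and SERPINB2, at 0 in every vehicle rat, passed it only through the TGFBRi rats. SOSTDC1, LRRC20, SIGLEC15, TMEM150C and IDI2 also passed through the TGFBRi rats, with vehicle means of 0.26, 3.29, 4.71, 9.79 and 37.0 in normalized values. FGF23, with a mean of 1.93 in the TGFBRi rats, passed through the vehicle rats. Because this rule used the same contrast, the values describe the genes and support no count. Apart from CCR1L1 none passed limma's adjusted threshold, with adjusted p from 0.0681 to 0.304 for the other higher genes and 0.0995 to 0.304 for the lower ones, while DESeq2 called 9 of the 12 higher and 11 of the 12 lower. With only the 2 groups in the limma fit, 6 of the higher genes (MYCL, BPGM, SERPINB2, IDI2, LGALS7 and EDN1) and 4 of the lower ones (ITPK1, CRISPLD2, BMP4 and GPX3) passed, with adjusted p from 0.00187 for GPX3 to 0.0445 for MYCL.

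**Figure D1:**
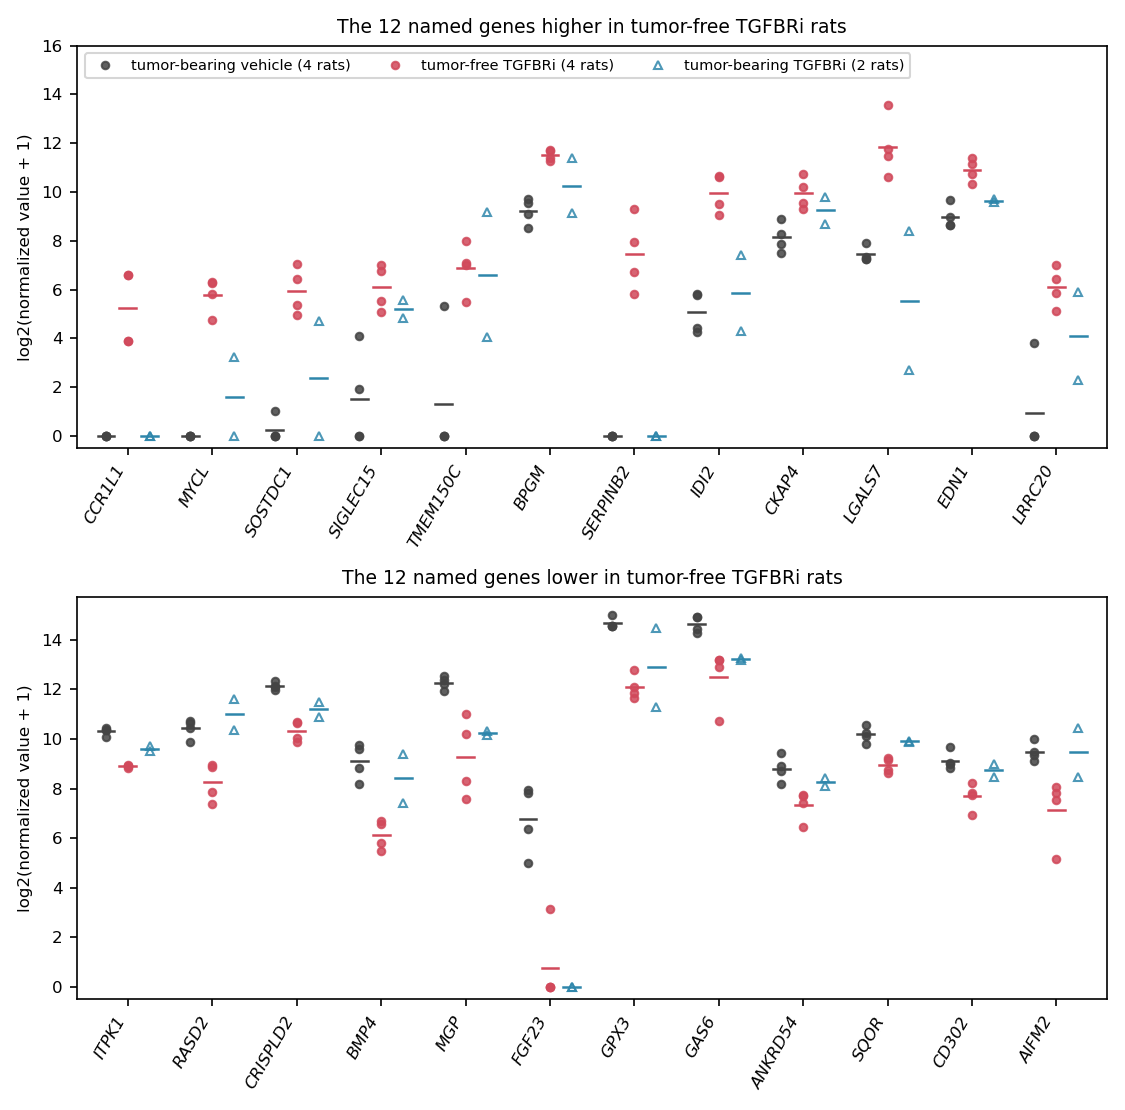
Normalized values of the 24 genes in each rat, on the scale of log2(normalized value + 1), for the vehicle rats and for both TGFBRi groups with E2, with points for rats and short lines for group means. The 4 vehicle and 4 tumor-free TGFBRi rats do not overlap for any of these genes, which is how they were chosen, and several higher genes (CCR1L1, MYCL, SERPINB2) lie at 0 in every vehicle rat.

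Among the higher genes, several were close to undetected in vehicle rats. MYCL, a MYC-family transcription factor gene, was at 0 in the 4 vehicle rats. It stood at 55.98, 26.1, 75.2 and 78.6 in the TGFBRi rats, with a mean at least 71.6-fold higher (limma adjusted p = 0.0681). SERPINB2, which encodes an inhibitor of plasminogen activators, was at 0 in the 4 vehicle rats. It stood at 243, 105.9, 632 and 55.7 in the TGFBRi rats, with a mean at least 315-fold higher (limma adjusted p = 0.129). Both were also read in rats without E2: MYCL stood at 20.8 to 183 in the 4 vehicle and 9.30 to 66.3 in the 3 TGFBRi rats without E2, and SERPINB2 at 756 and 18.4 in 2 of the vehicle rats and at 0 in the other 2 and in all 3 TGFBRi rats. SOSTDC1, a secreted antagonist of BMP and WNT signals, was at 0, 1.02, 0 and 0 in vehicle and 84.8, 39.9, 133 and 29.8 in TGFBRi rats (limma adjusted p = 0.0995).

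Others were expressed in both groups. BPGM, which makes 2,3-bisphosphoglycerate from a glycolytic intermediate, stood at 836, 365, 742 and 553 in vehicle and at 3253, 2700.4, 3353 and 2436 in TGFBRi rats. The lowest TGFBRi rat was thus well above the highest vehicle rat, a difference of 2.29 (SE 0.47, limma adjusted p = 0.129, DESeq2 adjusted p = 0.00104). LGALS7, the gene of galectin-7, a lectin of stratified epithelia that is uncertain where near-identical copies share reads, stood at 151, 161, 242 and 151 against 1546, 3421, 12209 and 2828 (4.40, SE 1.00, limma adjusted p = 0.220). IDI2, a paralog of the isoprenoid enzyme gene IDI1, stood at 55.2, 54.2, 18.3 and 20.4 against 725, 528, 1549 and 1619.5. EDN1, which encodes endothelin-1, stood at 810.1, 506, 404 and 405 against 2723, 1288, 1695 and 2274. CKAP4 stood at 182 to 480 in vehicle and 631 to 1707 in TGFBRi rats, a difference of 1.81. The remaining higher genes, SIGLEC15, TMEM150C and LRRC20, were at or near 0 in most vehicle rats. SIGLEC15 stood there at 16.0, 0, 2.82 and 0, TMEM150C at 39.2, 0, 0 and 0, and LRRC20 at 0, 0, 0 and 13.2. Their differences, between 4.59 and 5.55, depend on values near the floor.

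The lower genes were mostly well expressed. ITPK1, an inositol phosphate kinase gene, stood at 1315, 1074, 1378 and 1315 in vehicle and 491, 478, 459 and 481 in TGFBRi rats. Its difference was -1.40 (SE 0.26, limma adjusted p = 0.0995, DESeq2 adjusted p = 0.000206), and the 2 tumor-bearing TGFBRi rats, at 831 and 733, lay between the groups. CRISPLD2, which encodes a secreted protein, stood at 4434, 4323, 5159 and 4067 against 1057, 936, 1598 and 1650.3 (-1.82, SE 0.37, limma adjusted p = 0.129). GPX3, the secreted glutathione peroxidase, stood at 32589.98, 24256, 24229 and 23906 against 3171, 7014, 3739 and 4374, so that every TGFBRi rat was below every vehicle rat (-2.57, SE 0.61, limma adjusted p = 0.272). GAS6, the ligand of the TYRO3, AXL and MERTK receptors, stood at 30667, 22363, 19725 and 31004 against 1700.3, 9376, 9310 and 7550.2 (-2.14, SE 0.51, limma adjusted p = 0.286). MGP, a vitamin K-dependent inhibitor of calcification, stood at 5385, 3916, 4735 and 5863 against 189, 1185, 2074 and 312 (-2.99, SE 0.62, limma adjusted p = 0.129). MGP is made by several stromal cell types as well as by epithelium, and the marker sums had lower medians in the TGFBRi rats for fibroblasts (307 against 599 CPM) and endothelium (12.9 against 66.05 CPM), whose part in the result was not tested.

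FGF23, a hormone of phosphate balance made mainly in bone, was read at 242, 80.8, 30.99 and 224 in vehicle rats and at 7.71, 0, 0 and 0 in TGFBRi rats (-5.99, SE 1.31, limma adjusted p = 0.163, DESeq2 adjusted p = 0.633). It was also at 0 in both tumor-bearing TGFBRi rats. RASD2, a small GTPase gene, was lower in the TGFBRi rats (163 to 494) than in vehicle (940.4 to 1686), and AIFM2, which protects membranes from lipid peroxidation, stood at 34.3 to 266 against 558 to 1008. ANKRD54, SQOR, the mitochondrial sulfide oxidase gene, and CD302 were lower by 1.25 to 1.48 log2 units.

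The endoplasmic reticulum (ER) chaperones that fold secreted proteins mostly had differences below 0, though no member was called by limma or DESeq2. Of 31 tested genes of this list, 29 had a difference below 0, with a median of -0.33 against 0.00 over all genes, and 7 did not overlap between the rats and were lower (background 2.6%), with 0 higher. The median without 1 rat ran from -0.42 to -0.29. Taken rat by rat the list overlapped: its median relative to the vehicle mean was -0.40 in vehicle rat 3 and -0.22 and -0.33 in TGFBRi rats 1 and 2. In the unadjusted limma test 6 were lower (background 3.24%) and 0 higher. Here and in the lists that follow, members that are not among the 3 most expressed of their list were chosen after their values were seen.

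Several of the promoters of these genes carry the ER stress response element (ERSE), the sequence that unfolded protein response factors recognize. It was searched on both strands as CCAAT followed by 9 bases of any kind (N) and CCACG, in capitals below, from 250 bases before to 50 bases after the gene start in RefSeq (GRCr8 assembly). It was present in 9 of 22 list genes with a promoter in the table (40.9%), against 22 of 33469 promoters in all (0.0657%). The 4 promoters shown are those of the ERSE genes whose rats did not overlap. They lie at chr3:38452766-38453065 (plus strand, HSPA5), chr7:23012244-23012543 (minus, HSP90B1), chr19:40213117-40213416 (plus, CALR) and chr10:35157808-35158107 (minus, CANX).
HSPA5: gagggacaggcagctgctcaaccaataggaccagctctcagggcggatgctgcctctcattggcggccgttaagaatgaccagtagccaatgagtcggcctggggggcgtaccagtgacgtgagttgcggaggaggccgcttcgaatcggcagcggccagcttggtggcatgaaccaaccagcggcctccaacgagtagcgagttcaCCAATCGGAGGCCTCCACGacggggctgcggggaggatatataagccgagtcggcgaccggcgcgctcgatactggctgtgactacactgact
HSP90B1: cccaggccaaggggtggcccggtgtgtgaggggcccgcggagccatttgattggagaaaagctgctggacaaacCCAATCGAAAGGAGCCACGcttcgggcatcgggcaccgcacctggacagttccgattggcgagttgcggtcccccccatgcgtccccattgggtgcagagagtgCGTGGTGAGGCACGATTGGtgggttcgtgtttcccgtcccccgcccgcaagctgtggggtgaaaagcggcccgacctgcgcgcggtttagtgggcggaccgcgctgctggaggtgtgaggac
CALR: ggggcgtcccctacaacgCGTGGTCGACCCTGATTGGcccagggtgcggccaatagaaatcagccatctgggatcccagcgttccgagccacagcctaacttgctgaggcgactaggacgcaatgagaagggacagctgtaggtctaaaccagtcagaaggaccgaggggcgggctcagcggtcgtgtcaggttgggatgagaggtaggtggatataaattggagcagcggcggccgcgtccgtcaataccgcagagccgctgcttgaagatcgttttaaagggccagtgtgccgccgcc
CANX: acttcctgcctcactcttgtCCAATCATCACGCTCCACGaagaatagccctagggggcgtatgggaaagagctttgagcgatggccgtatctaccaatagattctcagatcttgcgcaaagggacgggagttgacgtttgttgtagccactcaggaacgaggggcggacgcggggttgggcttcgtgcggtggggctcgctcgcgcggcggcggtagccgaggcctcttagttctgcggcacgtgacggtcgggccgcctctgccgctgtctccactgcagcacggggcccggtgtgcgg

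These letters, and the share of promoters with the motif, do not depend on the rats. They are a description and not evidence of a bound site. The 9 list genes with the motif had a median difference of -0.57, with 9 of 9 below 0, and the 13 without it had -0.38, with 11 below 0. The differences overlapped, at -0.97 to -0.01 with the motif and -0.90 to 0.14 without it. HSPA5, the ER-resident chaperone BiP, stood at 185291, 136099, 142868 and 253718 in vehicle and at 76629.8, 96339, 129308 and 66686 in TGFBRi rats. Its 4 TGFBRi values were all below the 4 vehicle values, by -0.96 (SE 0.26, unadjusted p = 0.00166 and limma adjusted p = 0.360). HSP90B1, which encodes GRP94, stood at 40276, 28555, 38318 and 64250.4 against 16891, 25915, 28149 and 15491 (-0.97, SE 0.29, limma adjusted p = 0.410). CALR, the lectin chaperone calreticulin, differed by -0.57 (SE 0.20, limma adjusted p = 0.567), and CANX, its membrane-bound relative, by -0.32. PDIA4, a disulfide isomerase gene, stood at 9511, 7938, 7099 and 14316 against 5757, 4900.3, 5812 and 4824. HSPA5 stood at 106106 and 116635 in the 2 tumor-bearing TGFBRi rats, also below every vehicle rat with E2. In tumor-bearing TGFBRi against vehicle rats the list median was -0.22, with 6 of 31 above 0. Without E2 the list median was -0.02.

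**Figure D2:**
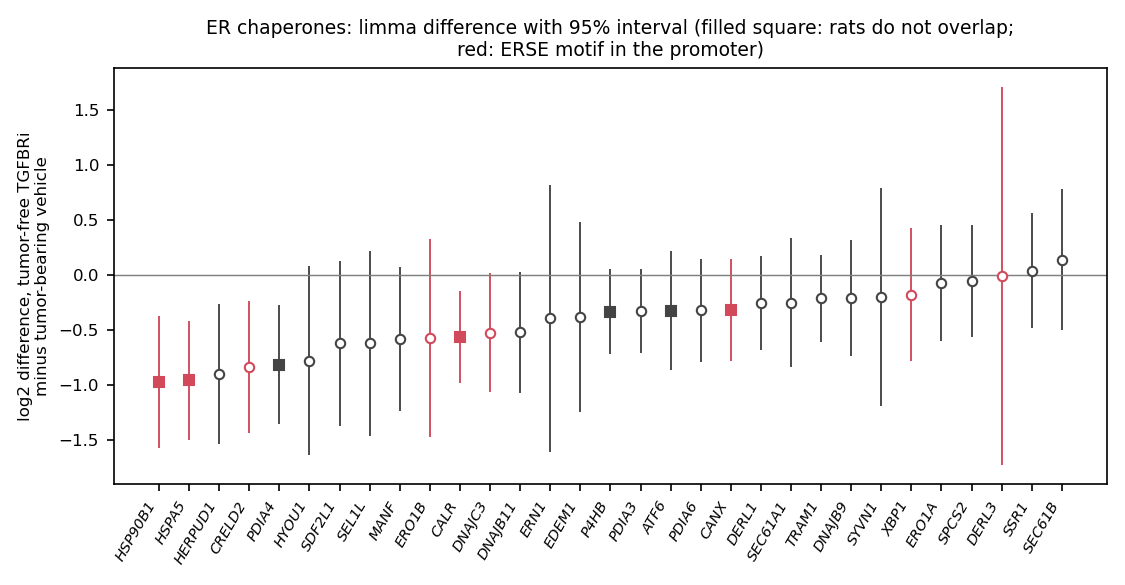
Difference of each of the 31 ER chaperone genes in log2 units, tumor-free TGFBRi minus vehicle, with its 95% interval, where filled squares are genes whose rats do not overlap and red marks genes with the ERSE motif in the promoter. All but 2 genes lie below 0 and the intervals of most reach 0.

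Acute-phase and complement genes, which encode proteins secreted into plasma and milk, mostly had differences below 0. Of 13 acute-phase genes, 12 had a difference below 0 with a median of -0.41, 5 did not overlap and were lower (background 2.6%), and limma, edgeR and DESeq2 called 0. With only the 2 groups in the limma fit, LBP (adjusted p = 0.0462) and CP (0.0178) passed. LBP, which encodes the lipopolysaccharide-binding protein, stood at 71024, 63859, 79066 and 90444 in vehicle and at 14007, 34052, 33558 and 27272 in TGFBRi rats, without overlap (-1.55, SE 0.40, limma adjusted p = 0.359). Transferrin (TF), the iron carrier, stood at 2013663, 1977992, 1698197 and 2212469 against 545347, 1444873, 669404 and 1014512, and ceruloplasmin (CP), the copper ferroxidase, differed by -1.03 (SE 0.40). Of 23 complement genes, 19 lay below 0 with a median of -0.72 (-1.06 without TGFBRi rat 3 to -0.40 without vehicle rat 3), and 5 did not overlap and were lower (background 2.6%). CFB, complement factor B of the alternative pathway, stood at 33285, 24997, 33169 and 35465 against 9620.2, 18392, 21321 and 13200.4 (-1.07, SE 0.28, limma adjusted p = 0.360). C2, its counterpart in the classical pathway, differed by -0.72 (SE 0.21, limma adjusted p = 0.410), and C4A and C4B, near-identical copies whose split is uncertain, by -1.15 and -1.31. C3, by contrast, overlapped between the groups and differed by 0.51 with a 95% interval of 2.43 to either side. Without E2 the complement median was 0.85 and the acute-phase median -0.42, with 3 of 13 above 0. The fibroblast (2.11), macrophage (1.297) and T cell (1.37) medians were also above 0 in that contrast, and their part in the complement values was not tested. The difference between the E2 and no-E2 contrasts passed limma's adjusted threshold in 0 of 13590 genes (0.0%), with 579 at an unadjusted p below 0.05 (4.26%), 17 called by DESeq2 (0.125%) and 0 by edgeR (0.0%).

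Milk genes differed among themselves. CSN2, β-casein, the gene with the most reads in each of these 8 rats, stood at 2573088, 3131013, 2607888 and 2251646 in vehicle against 2182183, 4294492, 1783542 and 2462334 in TGFBRi rats. The groups overlapped, with a difference of -0.05. Its 95% interval was 3.43 to either side in the 5-group fit, which includes the rats without E2, and 0.52 with only the 2 groups in the fit. CSN3, κ-casein, differed by -0.32 and CSN1S1 by -0.08. LALBA, α-lactalbumin, the lactose synthase subunit, was apart from the caseins, at 157300.4, 131391, 129734 and 241423 against 15668, 81055, 73119.8 and 40479 (-1.86, SE 0.56, limma adjusted p = 0.410). Of 10 milk protein genes, 8 lay below 0 with a median of -0.18, which ran from -0.38 to 0.08 without 1 rat. Among 22 genes of milk fat synthesis and secretion, with a median of -0.06 (-0.29 to 0.09 without 1 rat), 5 did not overlap and were lower (background 2.6%) and 1 higher (3.05%). DESeq2 called 1 lower (background 0.213%), the lipid droplet gene CIDEA, at 471, 689, 347 and 508 against 190.2, 117, 76.1 and 120.4 (-2.02, SE 0.51, DESeq2 adjusted p = 0.0248, limma 0.342). Over the 35 gene lists, the list medians of the 4 TGFBRi rats lay above those of all 4 vehicle rats in 2 (MHC class II and class I) and below them in 5 (acute phase, complement, general leukocytes, estrogen response and transporters). Some of these margins were narrow, with the highest TGFBRi rat at -0.14 and the lowest vehicle rat at -0.10 for complement, and at -0.09 and -0.07 for estrogen response.

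**Figure D3:**
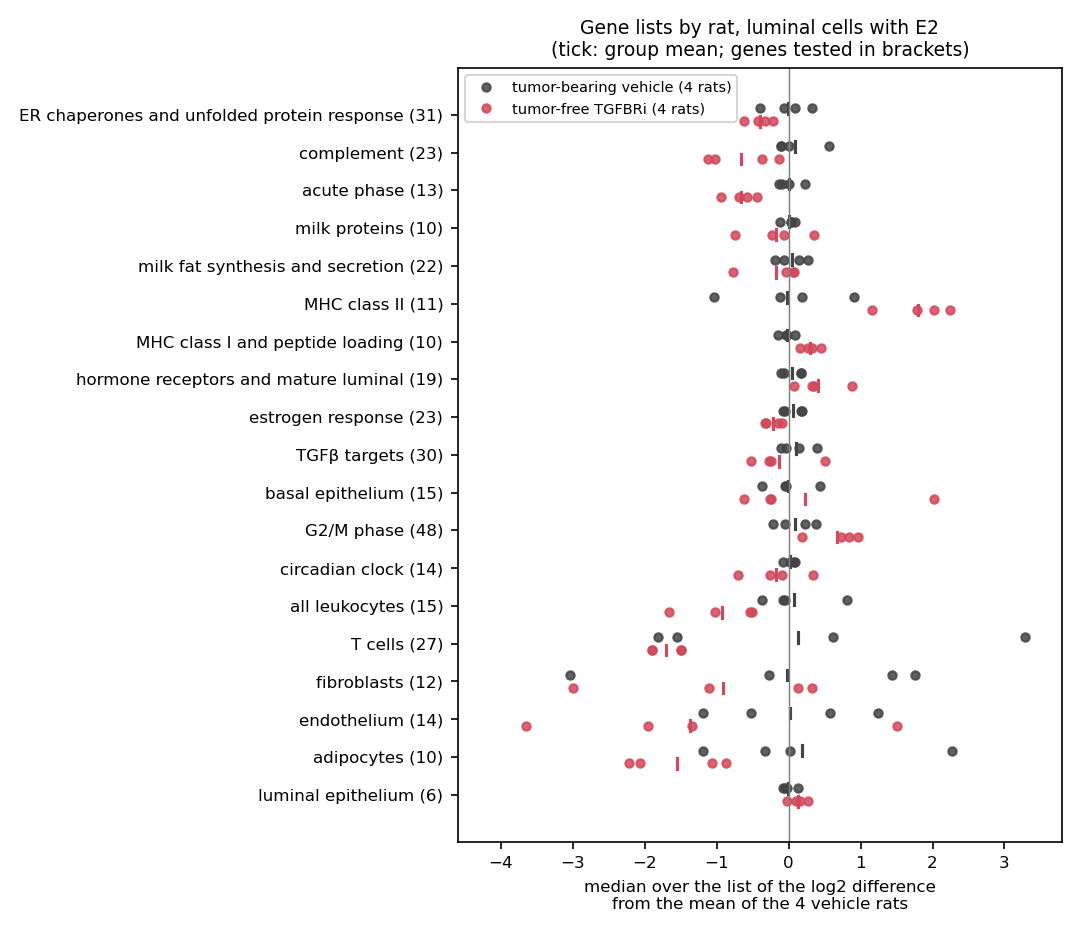
For each gene list, the median over its genes of the log2 difference from the mean of the 4 vehicle rats, one point per rat, with a tick at the group mean. The 4 tumor-free TGFBRi rats lie above every vehicle rat for MHC class II and class I and below every vehicle rat for acute-phase, complement, general leukocyte and estrogen response genes, while T cell, fibroblast and endothelial lists overlap widely.

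Most MHC class II genes had differences above 0 in the TGFBRi rats, none of them called in the 5-group fit. These genes encode the antigen-presenting molecules made by dendritic cells, macrophages and B cells and inducible in epithelium. Of 11 tested, 9 had a difference above 0, the median was 1.42 (1.06 to 1.59 without 1 rat), 5 did not overlap and were higher (background 3.05%), 4 were higher at an unadjusted limma p below 0.05 (background 2.86%), and 0 were called by limma, edgeR or DESeq2. CD74, the invariant chain, stood at 6543, 4130.1, 11930 and 8398 in vehicle and at 29129, 17376, 40352 and 31512 in TGFBRi rats, all 4 above the highest vehicle rat (1.97, SE 0.79, unadjusted p = 0.0221 and limma adjusted p = 0.721, or 0.0462 with only the 2 groups in the fit). RT1-BB, a class II β chain gene, stood at 610, 284, 1249.6 and 905 against 3482, 2054, 4687 and 3871. RT1-DB1, RT1-BA and RT1-DMA also did not overlap and were higher. CIITA, the transcriptional activator of the class II genes, was low at 0 to 84.5 in vehicle and 0 to 34.6 in TGFBRi rats and overlapped.

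Leukocytes carry the same transcripts, so the class II sum was set beside the leukocyte markers. The 11 class II genes summed to 352, 202, 702 and 435 CPM in vehicle and to 1800.0, 894, 2322 and 1868 in TGFBRi luminal cells, while the leukocyte markers had a lower median in the TGFBRi rats (24.6 against 40.0 CPM), with 0 of the 6 at 0 in all rats of either group. The 6 macrophage markers were not lower in median (18.7 CPM in TGFBRi against 18.3 in vehicle rats, ranges 9.65 to 24.9 and 11.7 to 49.1), with MRC1 at 0 in all 4 vehicle rats. The longer macrophage list of 15 genes had a median difference of -0.60 (-0.92 to -0.22 without 1 rat), with 11 below 0. The 4 B and plasma cell markers measured summed to at most 7.16 CPM in vehicle and 0.75 in TGFBRi rats. The part of such cells in the class II values was not tested. The ratio of class II to leukocyte CPM was 9.83, 4.58, 7.23 and 14.0 in vehicle and 63.4, 60.4, 71.6 and 89.8 in TGFBRi luminal cells, against 2.58 to 6.74 in the CD45-sorted cells of the same rats. The leukocyte sum was made up differently in the luminal and CD45-sorted cells. CD48 gave 6.30 to 20.1 CPM and LAPTM5 2.00 to 7.84 in TGFBRi luminal cells, against means of 267 and 3777 in their CD45-sorted cells. The ratios of the luminal and CD45-sorted cells therefore do not share a like denominator. In the 2 tumor-bearing TGFBRi rats CD74 stood at 2596 and 53486, so these rats were far apart. Without E2 the class II median was 0.91, with 10 of 11 above 0, but the rats overlapped. Relative to the mean of the vehicle rats with E2, the list median of the 3 TGFBRi rats without E2 was -1.98, 1.92 and -0.84. In the 4 vehicle rats without E2 it was -2.13 to -0.18. The macrophage (1.297) and general leukocyte (0.82) medians were also above 0 in that contrast, and their part was not tested. Of 10 MHC class I and peptide-loading genes, 9 lay above 0 with a median of 0.32, 4 did not overlap and were higher (background 3.05%), and B2M, the class I light chain, differed by -0.04 with an interval of 0.51 to either side. The class I genes belong to a family of near-identical copies and their single values are uncertain.

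**Figure D4:**
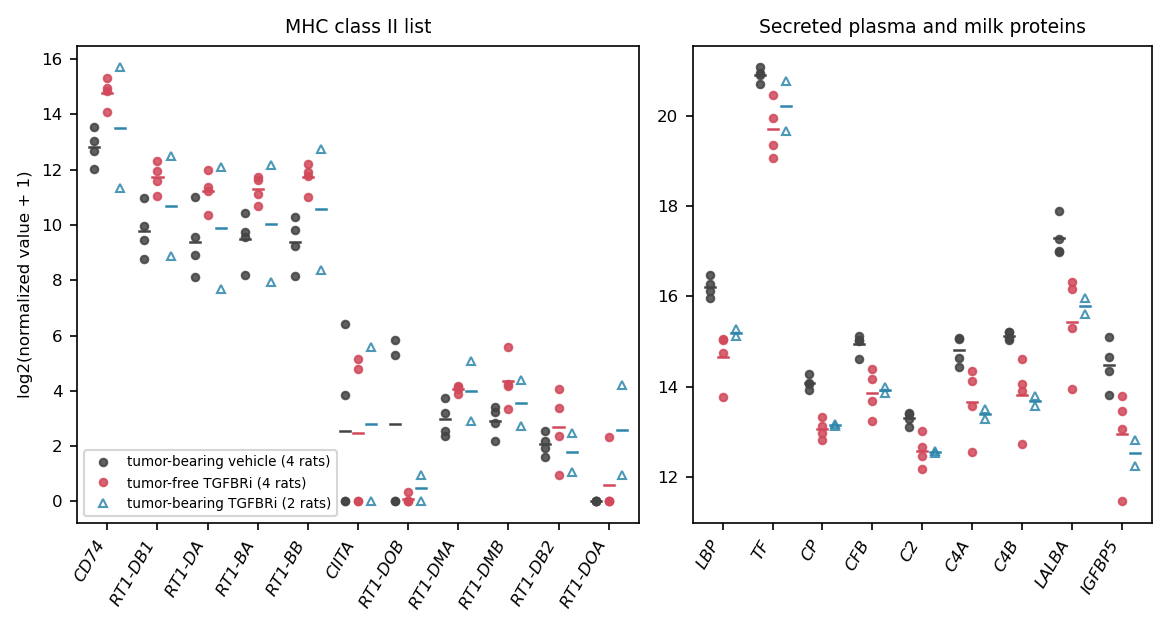
Log2(normalized value + 1) of the 11 MHC class II genes and of 9 genes of secreted proteins in each rat, by group, with group means as short lines. Tumor-free TGFBRi rats lie above the vehicle rats for CD74 and RT1-BB and below them for LBP, CFB and LALBA, and the 2 tumor-bearing TGFBRi rats differ widely in the class II genes.

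Genes of the hormone-sensing luminal cell mostly had differences above 0. Of 19 tested, 16 lay above 0 with a median of 0.52 (0.27 to 0.69 without 1 rat), 5 did not overlap and were higher (background 3.05%) and 1 lower (2.6%), and DESeq2 called 1 higher (0.206%). The rats overlapped in the list median, which was 0.08 in TGFBRi rat 2 against 0.17 and 0.18 in vehicle rats 1 and 4. Without E2 the list median was 0.41, with 16 of 19 above 0. The gene called by DESeq2 was FOXA1, a pioneer factor for the estrogen receptor, at 92.6, 74.7, 151 and 153 in vehicle and 297, 604, 859 and 474 in TGFBRi rats, without overlap (2.20, SE 0.60, DESeq2 adjusted p = 0.0492, limma 0.367). LY6D, a surface marker of mature luminal cells, stood at 177, 33.8, 25.4 and 40.7 against 965, 1198, 1326 and 525 (limma adjusted p = 0.538, or 0.0178 with only the 2 groups in the fit). The receptor genes themselves showed no such separation: ESR1, the estrogen receptor, stood at 9.86 to 146 against 78.6 to 132, PGR, the progesterone receptor, differed by 0.00 with an interval of 1.09, and PRLR, the prolactin receptor, by 0.09 with an interval of 0.82. GHR, the growth hormone receptor, was the member that did not overlap and was lower, at 345, 503, 535 and 362 against 186, 297, 65.9 and 199. The 23 estrogen response genes had a median of -0.21 (-0.38 to -0.17 without 1 rat) with 14 below 0, and the estrogen response element, searched on both strands as GGTCA, NNN and TGACC in a row, was in 0 of 17 of their promoters in the table and in 9 of 33469 in all (0.0269%).

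The TGFβ pathway genes had a median close to that of all genes. Of 39 ligand, receptor and SMAD genes, 24 lay below 0, with a median of -0.04 (-0.34 without TGFBRi rat 3 to 0.12 without TGFBRi rat 4), and DESeq2 called 1 higher (background 0.206%) and 1 lower (0.213%). The ligand genes TGFB1, TGFB2 and TGFB3 differed by -0.04, 0.11 and -0.60, with intervals of 1.31, 1.03 and 0.96 to either side, and the receptors TGFBR1 and TGFBR2 by -0.01 and -0.29. BMP4, a ligand of the related BMP receptors, was the exception in size: 458, 761, 293 and 858 in vehicle against 54.4, 94.9, 102.997 and 43.8 in TGFBRi rats (-2.95, SE 0.61, limma adjusted p = 0.129, DESeq2 adjusted p = 0.000633). SMAD4, the common SMAD, was called higher by DESeq2 (377, 574, 534 and 462 against 523, 2120.1, 3533 and 1385), although rat 1 of the TGFBRi group overlapped the vehicle rats. Of 30 TGFβ target genes, 22 lay below 0, with a median of -0.14 (-0.45 to -0.05 without 1 rat), 5 lower at an unadjusted p below 0.05 (background 3.24%), 0 higher, and 1 that did not overlap and was lower (background 2.6%). CCN2, a matricellular target, stood at 2966, 617, 1723 and 2296 against 609, 485, 1211 and 533 (-1.31, SE 0.47, limma adjusted p = 0.579), and SMAD7, an inhibitory SMAD, differed by -0.09. LTBP2, a matrix protein of the latent TGFβ-binding family that stands in both lists, did not overlap, at 2031, 1113, 1216 and 2942 against 137, 906, 791 and 339.

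Most stromal and blood cell lists had a median below 0. The neutrophil list was at 0.06, with 5 of 9 genes above 0. The 15 general leukocyte genes had a median of -1.33 (-1.40 to -0.95 without 1 rat) with 12 below 0, and 3 did not overlap and were lower (background 2.6%). Their list median was -1.66 to -0.51 in the TGFBRi rats and -0.38 to 0.80 in the vehicle rats, without overlap. The other lists spread more widely. The 27 T cell genes had a median of -1.30 with 25 below 0, the 14 endothelial genes -1.43 with 14 below 0, the 10 adipocyte genes -1.35 with 10 below 0 and the 12 fibroblast genes -0.75 with 11 below 0. DESeq2 called 4 of the T cell genes lower (background 0.213%) and limma 0. Without 1 rat the fibroblast median ran from -1.76 (vehicle rat 1) to 0.03 (TGFBRi rat 4), the endothelial median from -2.19 (TGFBRi rat 3) to -0.64 (TGFBRi rat 4) and the adipocyte median from -1.80 (vehicle rat 1) to -0.84 (vehicle rat 3). The T cell median ran from -1.91 to -0.03, the latter without vehicle rat 3, and the T cell marker sum was 2.14 to 30.8 CPM in vehicle against 0.55 to 5.38 in TGFBRi rats. These lists describe small amounts of RNA beside the luminal markers, and their part in the other results was not tested. The 15 basal epithelial genes had a median of 0.14, which ran from -0.51 to 0.62 without 1 rat. Of these, 3 did not overlap and were higher (background 3.05%) and 1 lower (2.6%). KRT5, a basal keratin also present in some luminal progenitors, stood at 231, 97.2, 225 and 120 in vehicle and at 505, 426, 2279.9 and 417 in TGFBRi rats. KRT14, its usual partner, overlapped, at 2179 to 3073 against 1934 to 10590.2, the highest value being TGFBRi rat 3.

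The treatment contrast without E2, where no rat bore a tumor and no rat was shared with the comparison above, was set beside the 24 named genes. limma called 2 genes higher (0.0147%) and 0 lower (0.0%) in TGFBRi rats there, FGF10 and PCDHA8, with 432 genes at an unadjusted p below 0.05 (3.18%), and edgeR called 0 (0.0%) and DESeq2 15 (0.11%). Fibroblast markers there summed to 142 to 322 CPM in vehicle and 341 to 1290 in TGFBRi rats, and their part in these calls was not tested. Of the 12 higher genes, 5 had the same sign without E2 and 0 had an unadjusted p below 0.05, and of the 12 lower genes the counts were 7 and 0. Of all 13590 genes, 7148 had a difference above 0 without E2. BMP4 differed by 0.76 without E2 and by -2.95 with it, a difference between the contrasts of -3.71 (unadjusted p = 0.000616, limma adjusted p = 0.677). The lowest adjusted p for such a difference among the 24 genes was 0.218, for MYCL. The fibroblast list median was 2.11 without E2 and -0.75 with it, and the part of fibroblasts in the BMP4 values was not tested. In the other tumor model, Sprague-Dawley (SD) rats given the carcinogen NMU (3 tumor-free TGFBRi and 3 tumor-bearing vehicle rats), dosing lasted 10 days and no estradiol pellet was used. Here 4 of the 10 higher genes measured had the same sign, as did 3 of the 11 lower ones. Of the 12514 genes measured in both experiments, 5204 had a difference above 0 in the NMU rats. At an unadjusted limma p below 0.05 (8.19% of all genes higher and 10.8% lower there) stood 2 of the 10 and 5 of the 11, of which 1 and 4 had the opposite sign. RASD2 was 2.05 higher in the TGFBRi rats there (limma adjusted p = 0.0465), and ITPK1, CRISPLD2 and GAS6 had differences of 1.68, 1.47 and 1.44, against -2.58 for LGALS7. limma called 122 genes higher (0.864%) and 12 lower (0.0849%) in that experiment, but the balance of directions turned in other fits, with 217 higher and 295 lower by edgeR and 502 higher and 862 lower by DESeq2. The limma count was 838 higher and 1179 lower without vehicle rat 3, 0 without vehicle rats 1 or 2 or TGFBRi rats 1 or 3, and 3 in all without TGFBRi rat 2. Vehicle rats 1 and 2 there had 6952044 and 14808084 reads on genes. Vehicle rat 3 and the tumor-free TGFBRi rats had 20003972 to 21445893, and the part of depth in these counts was not tested.

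Within E2-exposed rats, 2 further contrasts share rats with the first and rest on the same 2 tumor-bearing TGFBRi rats. limma called 1 gene lower, DSE (0.00736%), in tumor-bearing TGFBRi than in vehicle rats, and 2 higher, DSE and IGFBP2 (0.0147%), in tumor-free than in tumor-bearing TGFBRi rats. DSE encodes an epimerase of dermatan sulfate synthesis and IGFBP2 an IGF-binding protein. For the first of these contrasts edgeR called 0 genes and DESeq2 19 higher and 88 lower, and for the second edgeR 0 and DESeq2 99. In the first, 9 of the 12 higher and 11 of the 12 lower named genes kept their sign, though the vehicle rats are shared. List medians there were -0.52 for acute phase, -0.44 for complement, 0.63 for class II, 0.39 for class I and 0.43 for hormone-sensing genes. Other lists had the opposite sign, among them macrophages at 0.53 and G2/M at -0.04. Leaving out 1 of the 2 tumor-bearing TGFBRi rats leaves an arm of 1 rat, which is then assumed to vary like the other groups. The limma counts were then 27 higher and 32 lower, and 43 in all, without rat 1, and 10 higher and 33 lower, and 51 in all, without rat 2.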

How the data were processed

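Luminal cells of 17 ACI rats (20 libraries) were measured by bulk RNA-seq. The authors aligned reads to rn6 with STAR (2.5.1b), counted them per gene with HTSeq without strand, and deposited normalized values, a signal of counts divided by DESeq2 (1.30.1) size factors. Reads over overlapping genes on opposite strands therefore cannot be told apart by strand. All 598530 values were whole multiples of a per-sample step (tolerance 0.001), so reads were recovered; rows without a gene (28.7% to 40.6% of reads) were kept out. Since the unit was not raw counts, limma (3.58.1, R 4.3.3, trended prior, robust variances, log2 with a pseudocount of 1) on all 5 groups was the main test, over genes summing to at least 10, with edgeR (4.0.16) and DESeq2 (1.42.0) on recovered reads as alternatives. The same limma model was fitted to the NMU luminal samples. Rat 1's 4 parts were averaged (reads summed). The gene lists and comparisons were chosen with earlier results of these data known, so no list has a p. Named genes were the 12 per direction by the rule given in the report, called genes ranked first; other named genes are the 3 most expressed of a list or were chosen after their values were seen. Methods were tested on simulated data. Counting entered only as the floor of 3 reads behind the lowest folds of genes at 0 in every vehicle rat. Otherwise the error given is the spread between rats.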

Additional observations from a re-analysis of the deposited data

Results flagged for a closer look

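Within a group of 4 rats, 1 rat stood far from the other 3 in 12 of the 120 groups looked at (50 gene groups and 70 list groups), measured as its gap to the nearest rat divided by the range of the group, against a fixed critical value for groups of 4. Chance flags about 1 in 20 groups of 4 normally distributed values. That rate does not apply to genes with 3 rats at 0, where any nonzero rat gives a value of 1.0, or to genes chosen because the rats did not overlap.

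Among genes, the value was 1.0 for SOSTDC1 (vehicle rat 2 at 1.02, the others at 0), TMEM150C (vehicle rat 1 at 39.2, the others at 0), LRRC20 (vehicle rat 4 at 13.2, the others at 0) and FGF23 (TGFBRi rat 1 at 7.71, the others at 0). LGALS7 had a value of 0.8933, with vehicle rat 3 at 242 against 151 to 161. GPX3 had 0.9597, with vehicle rat 1 at 32589.98 against 23906 to 24256.

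Among list medians, given as log2 differences from the vehicle mean, milk fat genes had a value of 0.8681 (TGFBRi rat 3 at -0.77, the others -0.04 to 0.07) and complement 0.8455 (vehicle rat 3 at 0.57, the others -0.10 to 0.00). Vehicle rat 3 was also apart for interferon-stimulated genes, with 0.9215 (0.71 against -0.10 to -0.03), and it held the most T cell and leukocyte RNA of the vehicle rats. Vehicle rat 1 was apart for TGFβ family genes, with 0.8783 (-0.35 against 0.15 to 0.22). TGFBRi rat 3 was apart for basal epithelial genes, with 0.8589 (2.03 against -0.63 to -0.25), and TGFBRi rat 1 for mast cell genes, with 0.9324 (-0.10 against -1.29 to -1.21). None of these differences was followed to a cause, and their part in the results was not tested.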

How the results depend on the processing

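Counts of genes called moved with the fit, and the causes were not tested. For tumor-free TGFBRi against vehicle with E2 (2 calls), the count was 20 with only the 2 groups in the fit, 0 with a mean of at least 50, 0 by edgeR, 57 by DESeq2, 1 with part 1 of rat 1 only, and, as choices made after seeing the data, 45 by limma and 214 by DESeq2 with the 4 parts as 4 samples, which treats 1 rat as 4. Leaving out 1 rat gave 0 to 4. Without E2 (2 calls) it was 0 with only the 2 groups, 0 with a mean of at least 50, 0 by edgeR, 15 by DESeq2 and 19 with the parts as samples in DESeq2, and 0 to 5 without 1 rat. The difference between the E2 and no-E2 contrasts (0 calls) gave 17 by DESeq2, 3 by limma and 46 by DESeq2 with the parts as samples, and 0 to 2 without 1 rat. Tumor-bearing TGFBRi against vehicle (0 higher, 1 lower) gave 4 lower with only the 2 groups, 0 with a pseudocount of 5, 0 by edgeR, 19 higher and 88 lower by DESeq2, 36 higher and 92 lower with the parts as samples in DESeq2, and without 1 rat 0 to 27 higher and 0 to 33 lower, the highest counts with 1 tumor-bearing TGFBRi rat left in its arm and its spread taken from the other groups. Tumor-free against tumor-bearing TGFBRi (2 calls) gave 1 with only the 2 groups, 1 with a pseudocount of 5, 0 by edgeR, 99 by DESeq2, 14 by limma and 160 by DESeq2 with the parts as samples, and 2 to 51 without 1 rat, the highest again with that arm at 1 rat. The NMU comparison (134 calls) gave 512 by edgeR, 1364 by DESeq2 and 0 to 2017 without 1 rat, the highest without vehicle rat 3. For 25 single genes, 444 settings gave 0 reversals, with 348 on the same side of the threshold, 73 newly past it and 23 no longer past it. The rats do not overlap for any of these genes, so leaving out a rat could not reverse a sign and the 0 is no support. Of 35 list medians, 1 changed sign under TMM scaling, which moved the median of all genes from 0.00 to 0.04, and 23 kept their sign when any 1 rat was left out, an alternative chosen after seeing the data. No paired analysis was possible because each rat belongs to 1 group and replicate numbers only name rats.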

Other observations

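Cell cycle genes mostly had differences above 0 in the tumor-free TGFBRi rats. Of 48 G2/M genes 36 had a difference above 0, with a median of 0.56 (0.45 to 0.85 without 1 rat), and of 38 S phase genes 27, with a median of 0.14, and 0 were called by limma, edgeR or DESeq2. Of the G2/M genes, 2 did not overlap and were higher (background 3.05%) and 1 lower (2.6%), and the rats overlapped in the list median, at 0.19 in TGFBRi rat 2 against 0.37 and 0.23 in vehicle rats 2 and 3. The S phase medians overlapped too, at 0.16 in TGFBRi rat 4 against 0.30 in vehicle rat 1. MKI67, the gene of the proliferation antigen Ki-67, stood at 10.7, 145, 28.2 and 172 in vehicle and 276, 241, 315 and 329 in TGFBRi rats (2.42, SE 1.21, unadjusted p = 0.0607 and limma adjusted p = 0.851). TOP2A, another G2/M gene, overlapped, with a difference of -0.51.

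Of 17 IGF axis genes, 10 lay above 0, with a median of 0.18 (-0.16 to 0.23 without 1 rat), while 3 did not overlap and were lower (2.6% of all genes) and 1 higher (3.05%). IGFBP5, an IGF-binding protein gene linked to involution of the gland, stood at 25890.0, 20687, 14447 and 35245 in vehicle and 2802, 11244, 14103 and 8523 in TGFBRi rats (-1.54, SE 0.42, limma adjusted p = 0.367). IGFBP2 stood at 1415, 1367, 2426 and 889 against 2574, 2678, 6648 and 2716, and at 138 and 172 in the 2 tumor-bearing TGFBRi rats. Of 14 circadian clock genes, 13 lay below 0, with a median of -0.16 (-0.28 to -0.09 without 1 rat), and of 18 transporter genes 15, with a median of -0.37. The 34 interferon-stimulated genes had 20 above 0, with a median of 0.28, or 0.02 without TGFBRi rat 3.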
